A study of Mus musculus with 8 samples.

Results

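Histone genes encode the proteins around which DNA is wound in chromatin. Core histones of the H2A, H2B, H3 and H4 families form the nucleosome, and H1 linker histones bind the DNA between nucleosomes. Genes of the clustered histones lie side by side in the genome, are transcribed mainly while DNA is replicated, and give mRNAs that mostly end in a stem-loop in place of a poly(A) tail. Variant histone genes lie apart from the clusters, mostly give polyadenylated mRNAs and are also transcribed in cells that do not divide. Histones are also substrates of the protein arginine deiminases (PADs), which convert arginine to citrulline, and citrullinated histones are found in neutrophil extracellular traps.

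The genes described were the protein-coding genes whose symbol begins with *H1f*, *H2ac*, *H2bc*, *H3c* or *H4c* and a number, with *H2aj*, *H2aw*, *H2ax* or *H2az*, or with *H3f3*. This gave 79 of the 55416 genes in the deposited files. Of these, 68 were clustered (6 H1, 18 H2A, 19 H2B, 12 H3 and 13 H4 genes) and 11 were variant (5 H1, 4 H2A and 2 H3 genes). The annotation holds no symbol *H2aw*. A RefSeq table places *H2aw* within *Trim17* on chromosome 11, where the annotation has *H2ac25*, and *H2ac25* was counted with the clustered genes by its symbol. A further 7 symbols that match the pattern, 6 of them pseudogenes, are not protein-coding and were left out.

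Lung RNA was sequenced from 8 female C57BL/6 mice (C57BL/6J in the methods) aged 6 to 8 weeks, with 1 library per mouse from the lung lobe of 1 side. The control group held mice 1, 2 and 4, which received DMSO intravenously and then saline intraperitoneally. The LPS group held mice 1, 6 and 7, which received lipopolysaccharide at 35 mg/kg intraperitoneally as a model of endotoxin shock. No vehicle injection is described for this group. LPS and YW3-56 dual treatment was given to mice 2 and 5. They received YW3-56, a PAD inhibitor, dissolved in DMSO, at 10 mg/kg 0.5 h before the same dose of LPS. Lungs were taken 24 h after LPS. The values of the dual treatment rest on 2 mice.

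The total counts were 19061949, 19796242 and 20527836 in control mice 1, 2 and 4. They were 20818501, 19379911 and 19279724 in LPS mice 1, 6 and 7, and 19875939 and 20908608 in dual-treated mice 2 and 5. Values per mouse are CPM, counts scaled to library size after TMM normalization, and they follow this order of mice. A gene is called upregulated or downregulated where the adjusted p-value of edgeR's quasi-likelihood test over 18560 tested genes is under 0.05 and the fold change is over 2. Counts at an unadjusted p-value and by DESeq2 keep the same fold threshold. A log2 fold change (log2FC) is given with its standard error (SE).

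Some libraries stood apart in genes of other tissues. Summed over 10 genes of squamous epithelium, CPM was 0.343, 0.516 and 0.414 in control, 0.653, 801 and 2169.7 in LPS, and 1.91 and 3.42 in dual-treated lungs, with *Krt13* the most abundant. Summed over 10 genes of skeletal muscle, CPM was 10.9, 21.1 and 15.8 in control, 21.4, 545 and 1388 in LPS, and 7.03 and 9.31 in dual-treated lungs, with *Acta1* the most abundant. LPS mice 6 and 7 were thus high in both lists, and LPS mouse 1 was not. All 10 squamous genes and all 9 tested muscle genes were upregulated in LPS against control, and 9 of each were downregulated in dual-treated against LPS lungs. *Krtdap* and *Sprr3* had the highest log2FC among squamous genes and had 0 counts in each control library, as did *Crct1*, *Dsg3* and *Krt16*, so no fold is given. Among muscle genes, the log2FC was highest for *Myh1* (10.15) and *Acta1* (9.58), each with 0 counts in 1 control library, so these values depend on the prior count. The part of such tissue in the histone values was not tested, and medians of clustered histone genes without LPS mice 6 and 7 are given with the main counts. As a check of the tissue, 10 lung genes, led by *Scgb1a1*, summed to 68496, 69843 and 74963 CPM in control, 94765, 76446 and 70430.0 in LPS, and 42794 and 56250.1 in dual-treated lungs.

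Clustered histone genes contributed few counts. Over the 8 libraries together the 68 clustered genes held 33767 counts and the 11 variant genes 305128. The linker gene *H1f2* and the H2B gene *H2bc4* held 80.9% of the clustered counts. No counts in any library were found for 10 clustered genes and the variant *H1f7*, and 25 clustered genes and 1 variant gene had at most 3 counts in any library. After the filter on low counts, 25 clustered and 8 variant genes were tested, and 43 clustered and 3 variant genes were not. No untested clustered gene exceeded 14 counts in a library. Among the untested variant genes, *H1f8* had at most 7 counts in a library and *H1f9* at most 5. A gene can pass the filter through 1 group alone, so the counts and medians over tested genes describe those genes and give no support to a statement about all 79.

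Levels of different genes are compared per kilobase of exon, as CPM per kb averaged over the 8 libraries. The highest levels were those of the variant genes *H3f3b* (342 CPM per kb), *H2az1* (142) and *H2aj* (91.5). In control lungs alone *H2aj*, at 104 CPM per kb, was above *H2az1*, at 94.8. The clustered gene *H1f2* followed with 61.5 CPM per kb, next to the variant genes *H1f0* (59.8) and *H3f3a* (45.9). Then came the clustered *H2bc4* with 23.6 and the variant genes *H2az2* with 18.4 and *H2ax* with 17.2 CPM per kb. Below these were the clustered H4 genes *H4c8* (9.29), *H4c17* (4.72) and *H4c9* (4.34 CPM per kb). The order of genes below *H3f3b* differed between the groups. In dual-treated lungs *H1f0* (94.4 CPM per kb) was above *H1f2* (61.5), *H2ax* (21.6) above *H2bc4* (21.3), and *H4c9* (5.3) above *H4c8* (5.23). In LPS lungs *H3f3a* (46.7) was above *H1f0* (37.2), and *H2ax* (14.5) above *H2az2* (13.5). The most abundant clustered H2A gene by CPM, *H2ac25*, had 2.58 CPM per kb.

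The comparison of LPS with control lungs asks how endotoxin shock changed the mRNAs of histones. Of the 25 tested clustered genes, 12 were downregulated, against 21.3% of all 18560 genes. None was upregulated by edgeR, against 17.9% of all genes, and 0 were upregulated at an unadjusted p-value under 0.05 or by DESeq2. The median log2FC of the 25 genes was -1.58, with a range from -5.44 to 0.69, and the median of all tested genes was -0.01. The log2FC was negative for 23 of the 25, and 17 were lower in every LPS mouse than in any control mouse, as were 6929 of the 18560 tested genes. The median depended on the filter. Without a filter 58 clustered genes had a median of -0.87, with 34 negative and 22 positive, and 2 of them, *H4c1* and *H3c1*, were called higher. *H4c1* had 0 counts in each control and 14, 5 and 4 in the LPS libraries, and *H3c1* 0 in each control and 10, 2 and 5 in LPS, and both are named after their values were seen. At an unadjusted p-value 4 were higher without a filter. A minimum of 10 counts in each library left 7 with a median of -0.94. Without LPS mice 6 and 7, when 1 LPS mouse remained, the clustered median was -1.61, and that of all tested genes was -0.049. Of the 8 tested variant genes, 2 were upregulated and 0 downregulated by edgeR, with 0 downregulated at an unadjusted p-value under 0.05 and 0 by DESeq2, each with a fold change over 2. Without the fold threshold 3 were lower at an adjusted p-value under 0.05, *H1f0*, *H2aj* and *H2az2*. The log2FC of the 8 variant genes ran from -0.86 to 2.18 with a median of -0.04. Without LPS mouse 1, which had the highest level of *H2az1*, 1 variant gene was upregulated, as were 3188 of all 18560 genes. In bulk lung RNA, fewer cells of a type and less RNA per cell cannot be told apart.

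The comparison of dual-treated with control lungs asks what differed from normal lung when the PAD inhibitor preceded LPS. It called 2 of the 25 clustered genes downregulated, against 1.90% of all genes. At an unadjusted p-value under 0.05 there were 6, against 637 of all 18560 genes. None was upregulated by edgeR, against 5.25% of all genes, and 0 at an unadjusted p-value under 0.05 or by DESeq2. The median log2FC was -1.03, with a range from -2.43 to 0.27, and 11 clustered genes were lower in both dual-treated mice than in each control mouse, as were 4854 of all 18560 genes. These values depended on single mice. The clustered median was -2.48 without dual-treated mouse 5 and -0.29 without dual-treated mouse 2. Over all tested genes the medians of these fits, each with a lone dual-treated mouse, were -0.034 without mouse 5 and -0.042 without mouse 2. Without control mouse 2, edgeR called 0 clustered genes downregulated, against 226 of all genes, with 3 at an unadjusted p-value under 0.05. Without control mouse 4 it called 1, against 254 of all genes. Of the 8 variant genes, 0 were called in either direction by edgeR, 0 at an unadjusted p-value under 0.05 and 0 by DESeq2, each with a fold change over 2. Without the fold threshold *H1f0* was higher and *H2az2* lower at an unadjusted p-value under 0.05. Without dual-treated mouse 2 the log2FC of *H1f0* was 1.05. The median log2FC of the variant genes was 0.20, with a range from -0.57 to 0.67, and was 0.05 without dual-treated mouse 2 and 0.07 without dual-treated mouse 5.

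The comparison of dual-treated with LPS lungs asks how the inhibitor changed the response to LPS. Of the 25 clustered genes, 6 were upregulated, against 19.8% of all genes, and 1 was downregulated, against 14.0%. The median log2FC was 0.57, with a range from -3.10 to 3.28, and that of all tested genes was 0.06. The clustered median changed sign with 1 mouse, at -0.93 without dual-treated mouse 5 and 1.15 without dual-treated mouse 2. Over all tested genes the medians of these fits, each with a lone dual-treated mouse, were 0.014 without mouse 5 and -0.001 without mouse 2. Without LPS mouse 7, 3 clustered genes were upregulated, against 3590 of all 18560 genes, and the clustered median was 0.42. With LPS mice 6 and 7 both left out the clustered median was 0.43. Of the 8 variant genes, 1 was upregulated and 2 were downregulated, and the median log2FC was 0.20, with a range from -2.05 to 1.34. Leaving out LPS mouse 6 left 1 variant gene downregulated, against 2507 of all 18560 genes. The variant median was 0.27 without dual-treated mouse 2 and 0.02 without dual-treated mouse 5. The 3 comparisons share libraries, and their values are not independent of each other.

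With library size only in place of TMM normalization, the median log2FC of all tested genes moved to -0.294 in LPS against control, 0.044 in dual-treated against control and 0.383 in dual-treated against LPS lungs. The split of all genes into upregulated and downregulated moved from 3318 and 3961 to 2472 and 5124 in LPS against control lungs. In dual-treated against LPS lungs it moved from 3666 and 2598 to 5118 and 1735. Under this scaling 16 clustered genes were downregulated by LPS, and their median log2FC was -1.86, still below that of all genes. Of the variant genes, 1 was then upregulated and 1 downregulated by LPS.

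**Figure D1:**
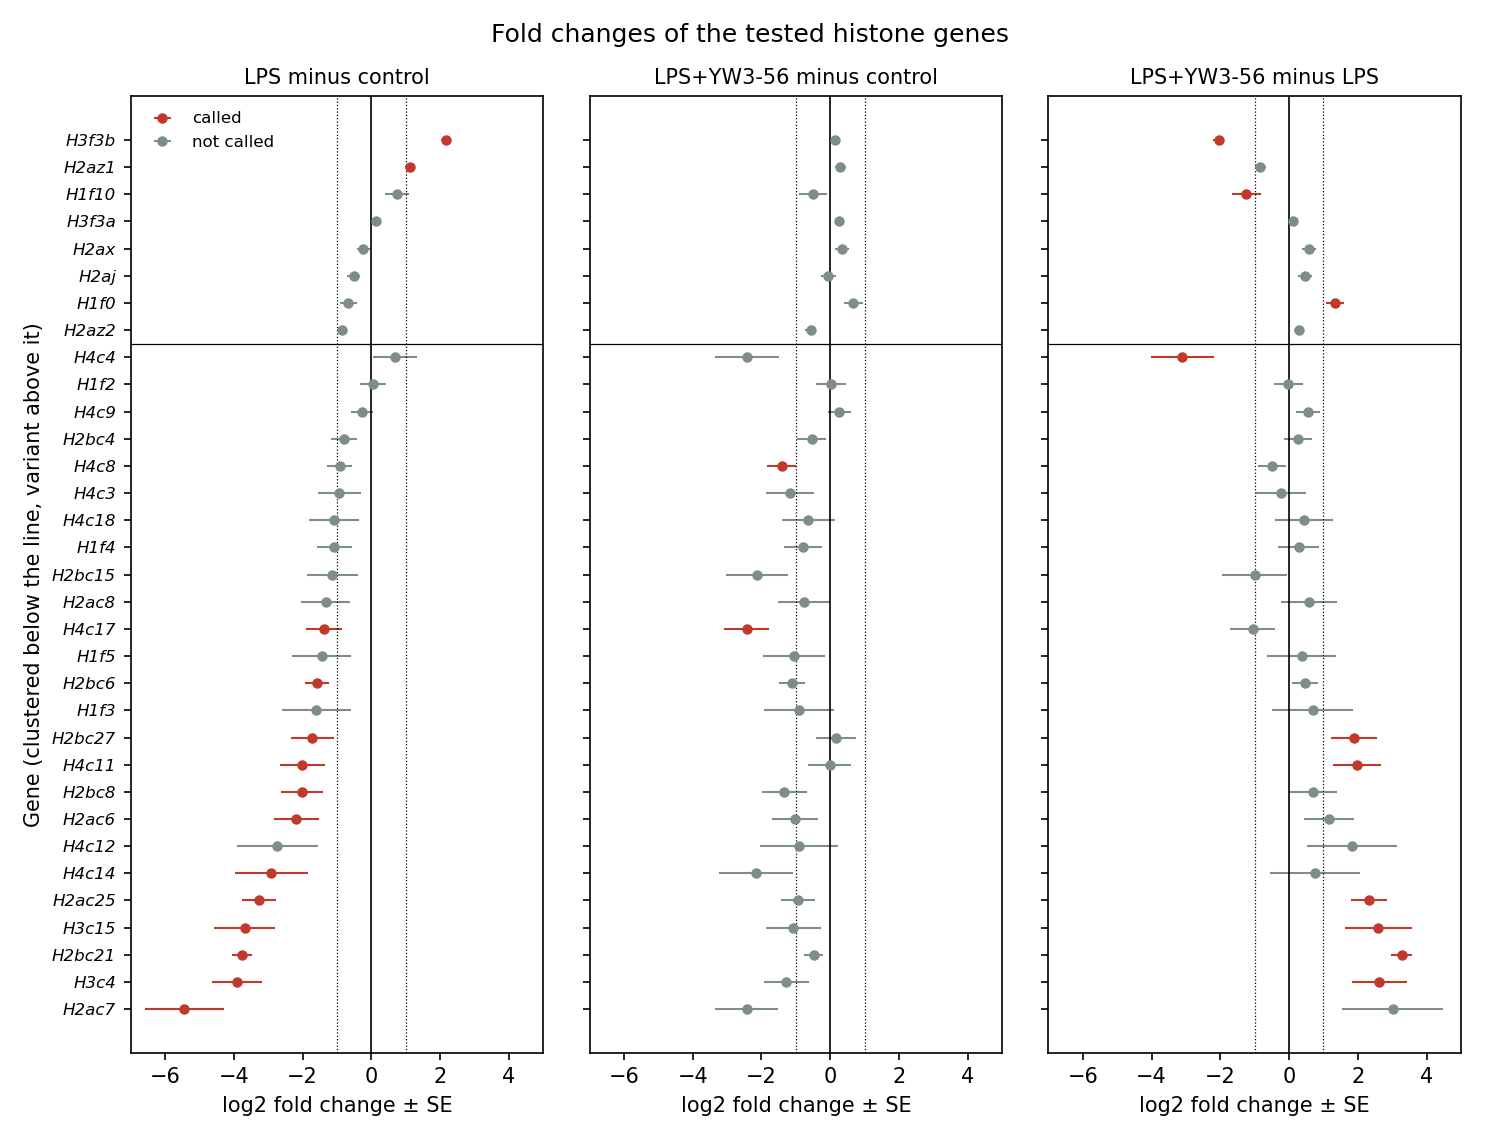
Log2 fold changes of the 33 tested histone genes in the 3 comparisons, with variant genes above and clustered genes below the horizontal line. Points are estimates of edgeR's fit with bars of 1 SE, red points are called, dotted lines mark a fold change of 2, and most clustered genes lie left of 0 in LPS minus control.

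Among the clustered linker histones, *H1f2* (ENSMUSG00000036181, chr13:23922791-23924350, plus strand of GRCm39) was the most abundant. It had 90.1, 105 and 87.5 CPM in control, 87.3, 115 and 90.5 in LPS, and 38.0 and 154 in dual-treated lungs. Control and LPS mice overlapped, dual-treated mouse 2 was the lowest of the 8 mice and dual-treated mouse 5 the highest. The log2FC was 0.05 in LPS against control (SE 0.385, adjusted p = 0.914), 0.03 in dual-treated against control (SE 0.429, adjusted p = 0.978) and -0.02 in dual-treated against LPS lungs (SE 0.43, adjusted p = 0.966). None was called, and their signs changed with single mice. Without dual-treated mouse 5 the log2FC was -1.34 against control and -1.39 against LPS, the latter called, and without dual-treated mouse 2 it was 0.68 and 0.62. Without LPS mouse 6 it was -0.08 in LPS against control. The other tested clustered H1 genes, *H1f3*, *H1f4* and *H1f5*, had log2FC from -1.60 to -1.08 in LPS against control lungs and were not called. The clustered H1 genes had 0 calls by edgeR in all 3 comparisons, and 0 at an unadjusted p-value under 0.05 or by DESeq2.

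Of the 18 clustered H2A genes 4 were tested, and 3 of these were downregulated by LPS, against 21.3% of all genes. *H2ac25* (ENSMUSG00000078851, chr11:58845511-58847656, plus strand of GRCm39) encodes a core H2A histone and lies within *Trim17*, whose exons it overlaps, so its counts are uncertain. It had 11.4, 8.54 and 10.6 CPM in control, 1.13, 0.982 and 1.06 in LPS, and 1.86 and 8.78 in dual-treated lungs. All LPS mice were below all others, dual-treated mouse 5 lay among the controls, and dual-treated mouse 2 was close to the LPS mice. *H2ac25* was 9.59-fold lower in LPS than in control lungs (log2FC -3.26, SE 0.5, adjusted p = 0.000316), and 5.02-fold higher in dual-treated lungs than after LPS alone (log2FC 2.33, SE 0.531, adjusted p = 0.00435). Against control, dual-treated lungs had a log2FC of -0.93 (SE 0.492, adjusted p = 0.236), which was not called. Without dual-treated mouse 5 the comparison with control was called at -2.48, and that with LPS was not, at 0.79. The latter was also not called without LPS mice 6 and 7, at 2.24.

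*H2ac7* (ENSMUSG00000071478, chr13:23758555-23759126, plus strand) had the lowest log2FC of a clustered gene in LPS lungs. Its counts were 20, 24 and 26 in control, 1, 0 and 0 in LPS, and 0 and 9 in dual-treated lungs. Control mice were all above the treated mice, of which dual-treated mouse 5 was the highest. The fitted log2FC of -5.44 (SE 1.15, adjusted p = 0.00229) depends on the prior count, and was not called without LPS mice 6 and 7, at -4.08. The ratio of control to LPS lungs from 70 counts against 1 was 57.4, with an exact 95% interval from 9.98 to 2301.0 that covers counting error only. Of the 150-base windows of *H2ac7*, 59.3% also occur in other genes of the symbol pattern, so reads could be split between paralogs. The median of the clustered genes does not depend on this gene, which lies below it at either end of the interval. *H2ac6* was downregulated by LPS as well, with a log2FC of -2.18, and *H2ac8*, at -1.33, was not called.

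Among 6 tested clustered H2B genes, 4 were downregulated by LPS, against 21.3% of all genes. *H2bc21* (ENSMUSG00000068854, chr3:96128435-96131054, plus strand of GRCm39) encodes a core H2B histone. It had 13.6, 12.9 and 12.0 CPM in control, 0.653, 1.1 and 1.06 in LPS, and 6.49 and 11.8 in dual-treated lungs. The 3 groups did not overlap, with dual-treated mouse 5 just below the controls and dual-treated mouse 2 between them and the LPS mice. *H2bc21* was 13.6-fold lower in LPS than in control lungs (log2FC -3.76, SE 0.294, adjusted p = 5.07e-06) and 9.69-fold higher in dual-treated lungs than after LPS alone (log2FC 3.28, SE 0.309, adjusted p = 2.87e-05). Its log2FC in dual-treated against control lungs was -0.48 (SE 0.273, adjusted p = 0.27), which was not called. Under all alternatives tried, leaving out each mouse included, the log2FC stayed between -4.28 and -3.56 in LPS against control and between 2.75 and 3.8 in dual-treated against LPS lungs, and both were called. No window of *H2bc21* is shared with another gene of the symbol pattern.

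*H2bc4* (ENSMUSG00000018102, chr13:23867631-23878163, plus strand of GRCm39) was the most abundant clustered H2B gene, and its exons overlap those of *H2ac6*. It had 75.8, 103 and 107 CPM in control, 61.2, 61.0 and 42.4 in LPS, and 29.3 and 102 in dual-treated lungs. LPS mice were below the control mice without overlap, and the dual-treated mice lay on either side of them. The log2FC was -0.80 in LPS against control (SE 0.369, adjusted p = 0.0822), -0.54 in dual-treated against control (SE 0.414, adjusted p = 0.428) and 0.26 in dual-treated against LPS lungs (SE 0.409, adjusted p = 0.604), and none was called. Without dual-treated mouse 5 the comparison with control was called at -1.73, and the log2FC against LPS was -0.93, and without dual-treated mouse 2 the log2FC against control was 0.07. The log2FC in LPS lungs was -1.72 for *H2bc27*, -1.58 for *H2bc6* and -2.02 for *H2bc8*, all called, and -1.13 for *H2bc15*, which was not. *H2bc27* was also upregulated in dual-treated against LPS lungs, by 1.89 on the log2 scale.

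Both tested genes among 12 clustered H3 genes were downregulated by LPS, against 21.3% of all genes. *H3c15* (ENSMUSG00000081058, chr3:96145424-96146443, minus strand of GRCm39) had 2.2, 2.02 and 2.67 CPM in control, 0.119, 0.347 and 0.0558 in LPS, and 0.136 and 2.02 in dual-treated lungs. Dual-treated mouse 2 lay among the LPS mice and dual-treated mouse 5 beside the lowest control mouse. *H3c15* was 12.8-fold lower in LPS than in control lungs (log2FC -3.68, SE 0.885, adjusted p = 0.00472). It was 6.07-fold higher in dual-treated lungs than after LPS alone (log2FC 2.60, SE 0.967, adjusted p = 0.0415), although these groups overlapped. In dual-treated against control lungs its log2FC was -1.08 (SE 0.799, adjusted p = 0.404). Without dual-treated mouse 5 the log2FC against LPS was -0.36 and that against control was called at -4.04. The comparison with LPS was also not called without LPS mouse 1, at 2.41, LPS mouse 7, at 2.18, or both LPS mice 6 and 7, at 3.13, and with only the 2 compared groups, at 2.56. Windows of *H3c15* are 59.4% shared with other genes of the symbol pattern.

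*H3c4* (ENSMUSG00000099583, chr13:23759937-23761855, plus strand of GRCm39) had 1.57, 1.78 and 2.94 CPM in control, 0.119, 0.231 and 0.0558 in LPS, and 0.272 and 1.45 in dual-treated lungs. LPS mice were the lowest, control mice the highest, and the dual-treated mice between them without overlap. *H3c4* was 14.9-fold lower in LPS than in control lungs (log2FC -3.90, SE 0.733, adjusted p = 0.00113) and 6.17-fold higher in dual-treated lungs than after LPS alone (log2FC 2.63, SE 0.809, adjusted p = 0.0192). Its log2FC in dual-treated against control lungs was -1.28 (SE 0.654, adjusted p = 0.223), which was not called. The comparison with LPS was not called without dual-treated mouse 5, at 0.96, LPS mouse 7, at 2.26, or both LPS mice 6 and 7, at 2.8.

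Of 9 tested among 13 clustered H4 genes, 3 were downregulated by LPS, against 21.3% of all genes. *H4c8* (ENSMUSG00000060981, chr13:23715220-23715689, plus strand of GRCm39) had 6.95, 7.13 and 5.56 CPM in control, 3.5, 3.98 and 2.9 in LPS, and 1.18 and 3.73 in dual-treated lungs. Control mice were above all treated mice, and dual-treated mouse 2 was the lowest. In LPS against control its log2FC of -0.92 (SE 0.357, adjusted p = 0.0444) missed the fold threshold. In dual-treated lungs it was 2.66-fold lower than in control (log2FC -1.41, SE 0.415, adjusted p = 0.047), a call that was lost without any 1 of the 3 control mice, at -1.37, -1.34 and -1.54, or without dual-treated mouse 2, at -0.84. It was also lost with library size only, at -1.38, and with only the 2 compared groups, at -1.4. Against LPS the log2FC was -0.49 (SE 0.413, adjusted p = 0.328), and 0.08 without dual-treated mouse 2. Over 14 alternatives it ran from -1.57 to 0.08, and 1 of them gained the call.

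*H4c17* (ENSMUSG00000069306, chr13:21995916-21996317, plus strand) had 2.2, 3.1 and 4.78 CPM in control, 1.66, 0.809 and 1.4 in LPS, and 0.182 and 1.05 in dual-treated lungs. All treated mice were below all control mice, and dual-treated mouse 2 was the lowest. *H4c17* was downregulated by LPS with a log2FC of -1.38 (SE 0.53, adjusted p = 0.0423), and was 5.38-fold lower in dual-treated than in control lungs (log2FC -2.43, SE 0.65, adjusted p = 0.0335). The second call was lost without control mouse 2, at -2.48, control mouse 4, at -2.11, or dual-treated mouse 2, at -1.70. Over the alternatives tried, this log2FC ran from -4.19 to -1.70. Windows of *H4c17* are 85.8% shared with other genes of the symbol pattern, so its counts are uncertain.

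*H4c4* (ENSMUSG00000061482, chr13:23765581-23766718, plus strand), whose exons overlap those of *H2bc6*, was the clustered gene downregulated in dual-treated against LPS lungs. It had 0.93, 0.798 and 0.138 CPM in control, 1.66, 0.635 and 0.726 in LPS, and 0.0908 and 0.132 in dual-treated lungs, from 28 counts at most in a library. Control and LPS mice overlapped, and both dual-treated mice were below all others. In dual-treated lungs it was 8.59-fold lower than in LPS lungs (log2FC -3.10, SE 0.921, adjusted p = 0.0162), which was not called when either dual-treated mouse was left out, at -2.89 without mouse 2 and -3.40 without mouse 5. *H4c11* and *H4c14* were downregulated by LPS with log2FC of -2.01 and -2.91, and *H4c11* was upregulated in dual-treated against LPS lungs with 1.98. *H4c12*, at -2.73 in LPS lungs, was not called.

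**Figure D2:**
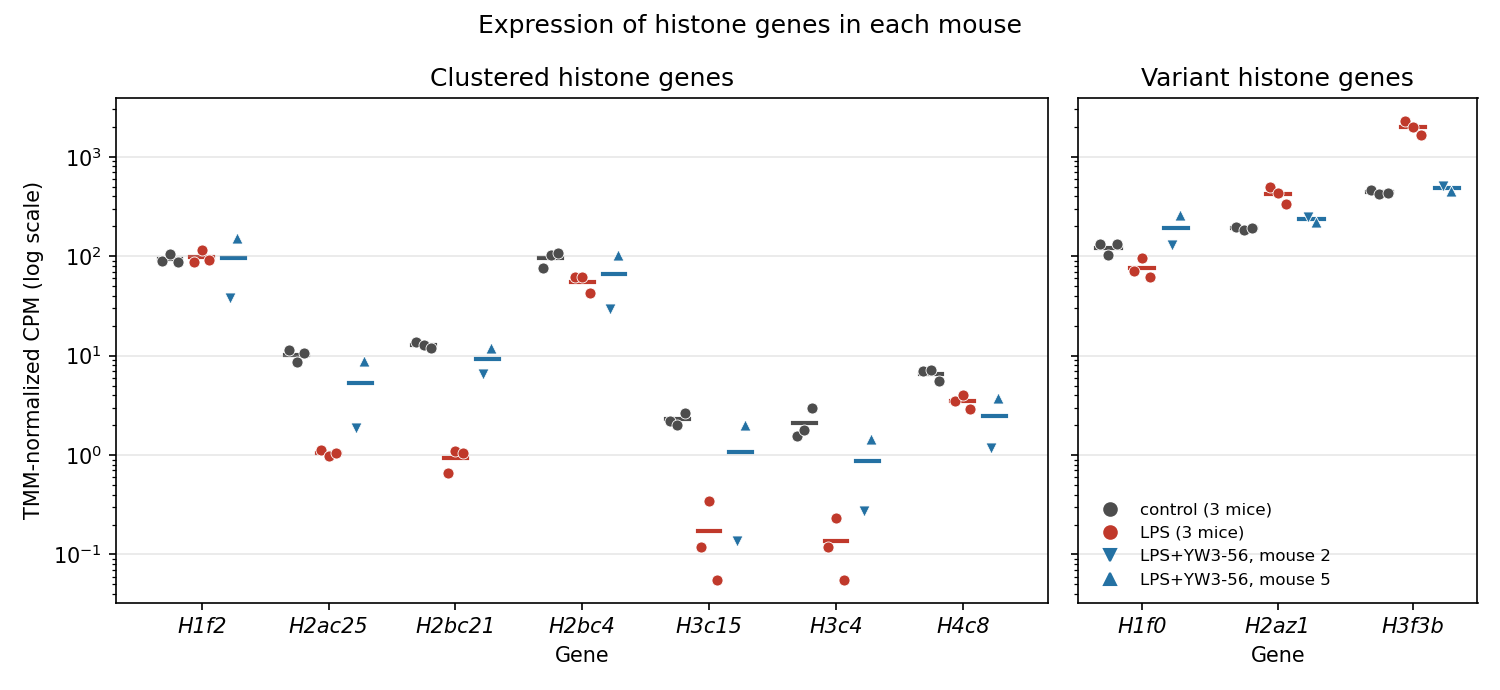
TMM-normalized CPM, on a log scale, of the most abundant clustered histone gene of each family, the clustered genes *H2bc21* and *H3c4*, and the variant genes *H1f0*, *H2az1* and *H3f3b*. Points are mice and bars are group means, with triangles for dual-treated mice 2 (pointing down) and 5 (pointing up), and in each clustered gene shown mouse 2 lies below mouse 5.

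The 2 dual-treated mice differed in clustered histone genes. In 24 of the 25 tested clustered genes dual-treated mouse 5 was higher than mouse 2, or 96.0%, against 51.5% of all tested genes. The median ratio of mouse 5 to mouse 2 was 4.05 over the clustered genes, with a range from 0.633 to 16 where neither mouse was at 0. It was 1.01 over all tested genes, and 1.14 over the variant genes, of which 5 of 8 were higher in mouse 5. Dual-treated mouse 2 was below all control mice in 24 of the 25 clustered genes and above them in 1, *H4c9*. Dual-treated mouse 5 was below all control mice in 11, within their range in 11 and above it in 3. LPS mice 1, 6 and 7 were below all control mice in 21, 18 and 20 clustered genes. Of all tested genes, 45.3%, 45.1% and 44.7% were below all control mice in these LPS mice, and 38.7% and 35.5% in dual-treated mice 2 and 5. *H4c9*, which was not called in any comparison, had 3.67, 1.97 and 3.95 CPM in control, 2.85, 2.89 and 2.23 in LPS, and 4.72 and 2.99 in dual-treated lungs. Among the tested clustered genes it is the one in which dual-treated mouse 2 was the highest of the 8 mice, and it is named after its values were seen.

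Among the variant genes, *H3f3b* and *H3f3a* encode the same replacement H3 histone, which is placed in chromatin outside replication. *H3f3b* (ENSMUSG00000016559, chr11:115912738-115918788, minus strand of GRCm39) had 466, 422 and 427 CPM in control, 2290.1, 2007 and 1670.4 in LPS, and 506 and 455 in dual-treated lungs. Each LPS mouse was far above the other 5 mice, and dual-treated and control mice overlapped. *H3f3b* was 4.54-fold higher in LPS lungs than in control (log2FC 2.18, SE 0.142, adjusted p = 2.02e-06) and 4.14-fold lower in dual-treated than in LPS lungs (log2FC -2.05, SE 0.165, adjusted p = 1.3e-05). In dual-treated against control lungs its log2FC was 0.13 (SE 0.152, adjusted p = 0.605). Both calls held under all alternatives tried, with log2FC from 1.89 to 2.39 and from -2.25 to -1.71.

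*H3f3a*, whose exons overlap those of the antisense gene *H3f3aos*, had 257, 252 and 263 CPM in control, 289.8, 315 and 252 in LPS, and 276 and 341 in dual-treated lungs. All groups were close to each other, and LPS and control mice overlapped. Its log2FC was 0.15, 0.26 and 0.11 in the 3 comparisons, in the order LPS against control, dual-treated against control and dual-treated against LPS, and none was called. The pair of genes differed in their response to LPS, as each log2FC shows, but the difference between them was not tested. Summed over both genes, CPM was 3.27-fold higher in LPS lungs than in control.

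*H2az1* and *H2az2* encode the H2A.Z variants, which mark nucleosomes near promoters. *H2az1* (ENSMUSG00000037894, chr3:137570072-137572690, plus strand of GRCm39) had 196, 185 and 194 CPM in control, 494, 432 and 331 in LPS, and 245 and 223 in dual-treated lungs. The 3 groups did not overlap, with the dual-treated mice above the controls and below the LPS mice. *H2az1* was 2.19-fold higher in LPS lungs than in control (log2FC 1.13, SE 0.143, adjusted p = 9.25e-05), which fell under the fold threshold without LPS mouse 1, at 0.99, and with library size only, at 0.83. In dual-treated against LPS lungs its log2FC was -0.84 (SE 0.162, adjusted p = 0.00171), under the fold threshold, and in dual-treated against control lungs 0.29 (SE 0.157, adjusted p = 0.256). Over 14 alternatives the former ran from -1.08 to -0.5, and 2 of them gained the call. *H2az2* had 88.3, 78.8 and 85.0 CPM in control, 51.3, 51.2 and 36.3 in LPS, and 51.1 and 61.9 in dual-treated lungs. All treated mice were below all control mice. Its log2FC was -0.86 in LPS against control (SE 0.142, adjusted p = 0.000497) and -0.57 in dual-treated against control lungs (SE 0.159, adjusted p = 0.0387), both under the fold threshold. The paralogs thus had log2FC of opposite sign in LPS lungs, also under library size only for *H2az1*.

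The linker variant *H1f0* (ENSMUSG00000096210, chr15:78912650-78914704, plus strand of GRCm39) is known from cells that have stopped dividing. It had 132, 102 and 132 CPM in control, 71.4, 96.2 and 62.0 in LPS, and 130.0 and 258 in dual-treated lungs. LPS mice were the lowest, dual-treated mouse 2 lay among the controls and dual-treated mouse 5 was the highest. *H1f0* was 2.53-fold higher in dual-treated lungs than after LPS alone (log2FC 1.34, SE 0.273, adjusted p = 0.00235), and not called without dual-treated mouse 5, at 0.74. Its log2FC was -0.67 in LPS against control (SE 0.25, adjusted p = 0.0365), under the fold threshold, and 0.67 in dual-treated against control lungs (SE 0.273, adjusted p = 0.13). Without dual-treated mouse 2 the latter was called at 1.05, and over the alternatives tried it ran from 0.06 to 1.05.

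*H1f10* (ENSMUSG00000044927, chr6:87957403-87958619, minus strand), another linker variant, had 1.76, 1.64 and 0.782 CPM in control, 2.2, 2.77 and 2.01 in LPS, and 0.908 and 1.05 in dual-treated lungs. LPS mice were above all other mice, and control and dual-treated mice overlapped. It was 2.36-fold lower in dual-treated than in LPS lungs (log2FC -1.24, SE 0.416, adjusted p = 0.0278). The call was lost without LPS mouse 6, at -1.09, dual-treated mouse 2, at -1.17, or dual-treated mouse 5, at -1.38, without both LPS mice 6 and 7, at -1.16, and with library size only, at -0.92. The other tested variants were not called. *H2aj* had log2FC of -0.51, -0.05 and 0.46 in the 3 comparisons, and *H2ax*, whose protein is phosphorylated at DNA breaks, had -0.23, 0.35 and 0.58.

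Summed over all 68 clustered genes, CPM was 227, 265 and 260.0 in control, 171, 195 and 149.7 in LPS, and 88.4 and 304 in dual-treated lungs. LPS mice were below the controls, dual-treated mouse 2 was below all others and dual-treated mouse 5 above all others. The group means with SD were 251 ± 20.9 for the 3 control mice, 172 ± 22.6 for the 3 LPS mice and 196 ± 153 for the 2 dual-treated mice. Without *H1f2* and *H2bc4* the sums were 60.8, 57.6 and 65.2 in control, 22.8, 18.9 and 16.8 in LPS, and 21.1 and 48.3 in dual-treated lungs. Here control lungs were 3.14-fold higher than LPS lungs, dual-treated mouse 2 lay among the LPS mice and mouse 5 between the groups. Summed over the 11 variant genes, CPM was 1392, 1234 and 1321 in control, 3376, 3091 and 2467 in LPS, and 1423 and 1566 in dual-treated lungs. LPS mice were above all others, and dual-treated mice were above the control mice. The variant sum was 2.26-fold higher in LPS lungs than in control, or 1.85-fold with library size only, and 1.99-fold higher in LPS than in dual-treated lungs. Much of this sum was *H3f3b*, whose mean CPM was 438 for control, 1989 for LPS and 481 for dual-treated mice.

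By family, the summed CPM of clustered H2A genes was 15.6, 12.7 and 14.9 in control, 2.14, 2.54 and 2.12 in LPS, and 2.95 and 11.8 in dual-treated lungs. That of clustered H3 genes was 4.45, 4.36 and 6.35 in control, 1.72, 1.39 and 1.23 in LPS, and 1.18 and 4.17 in dual-treated lungs. In both families LPS mice were below all controls and dual-treated mouse 2 was near them. Clustered H4 genes summed to 19.6, 17.3 and 19.9 CPM in control, 13.1, 10 and 8.15 in LPS, and 7.53 and 13.1 in dual-treated lungs. Clustered H2B genes summed to 95.8, 124 and 129 CPM in control, 66.1, 65.0 and 47.2 in LPS, and 38.4 and 119.8 in dual-treated lungs. Clustered H1 genes summed to 91.3, 106 and 89.8 CPM in control, 88.3, 116 and 91.0 in LPS, and 38.3 and 156 in dual-treated lungs. The H1 sum overlapped between control and LPS mice, and the other 4 families did not.

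**Figure D3:**
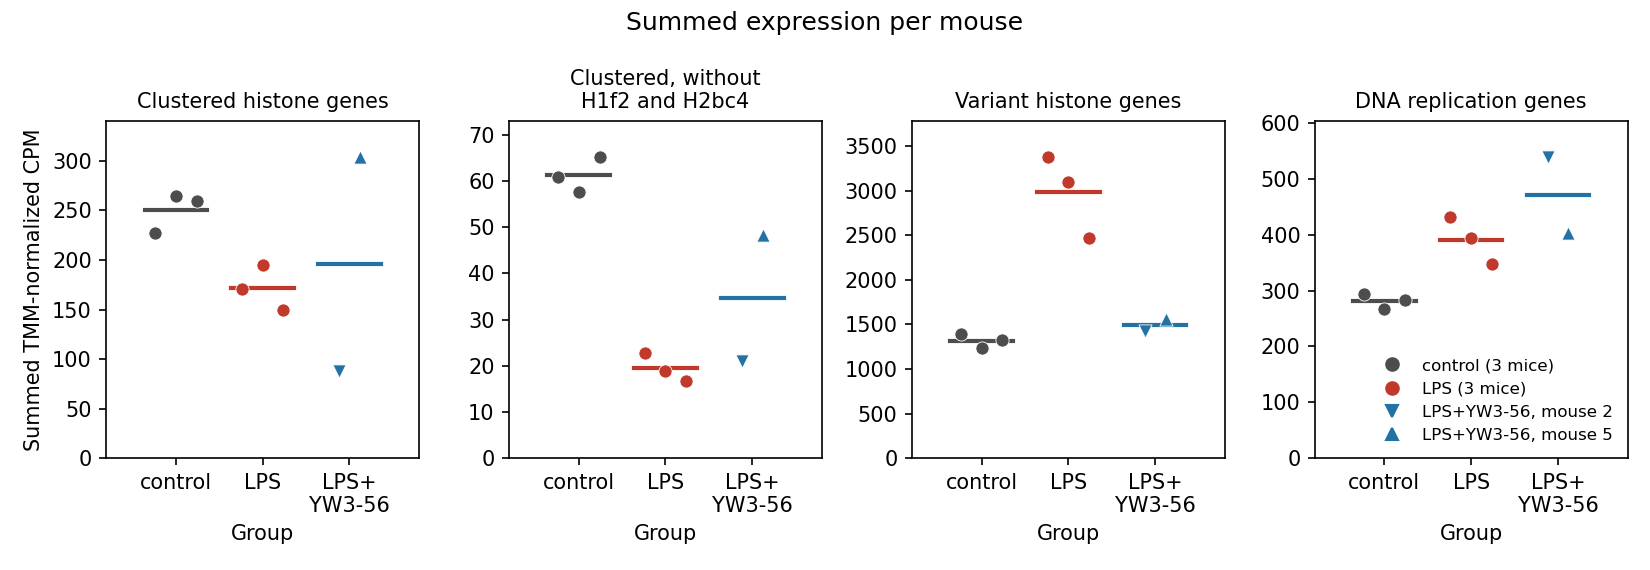
Summed TMM-normalized CPM per mouse of the clustered histone genes, the same without *H1f2* and *H2bc4*, the variant histone genes and a list of DNA replication genes. Points are mice and bars are group means, and dual-treated mouse 2 is the lowest of the 8 mice in the sum of all clustered genes, lies among the LPS mice without *H1f2* and *H2bc4*, and is the highest in DNA replication genes.

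Members share features that their symbols do not state. By position, 54 clustered genes lie on chromosome 13, 10 on chromosome 3, 3 on chromosome 11 and 1 on chromosome 6. A stem-loop of 16 bases, with a stem of 6 base pairs and a loop of 4 bases, was searched in the 100 bases after each stop codon of GRCm39. It was found in 67 of the 68 clustered genes, in the variant *H2ax*, and in 304 of all 21665 protein-coding genes, or 1.4%. The clustered gene without a match was *H2bc21*. Messages that end at the stem-loop have no poly(A) tail, and the labels state that libraries were made by poly(A) isolation or by rRNA removal without saying which. The sequences of a few members show how alike these ends are, with the stem-loop in capitals and 5 bases on each side in lower case. The stem-loops lie at chr13:23923495-23923510, chr13:23868630-23868645, chr11:58845998-58846013, chr13:23760418-23760433, chr13:23715628-23715643 and chr9:44246537-44246552 on the plus strand of GRCm39, in the order shown.
H1f2: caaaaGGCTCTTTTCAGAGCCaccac
H2bc4: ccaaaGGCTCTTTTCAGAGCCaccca
H2ac25: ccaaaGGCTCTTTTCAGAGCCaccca
H3c4: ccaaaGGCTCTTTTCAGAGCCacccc
H4c8: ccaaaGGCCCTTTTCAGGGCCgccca
H2ax: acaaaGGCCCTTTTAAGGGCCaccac

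For 28 clustered genes the annotation holds a transcript that goes on at least 100 bases past the stem-loop, and for 39 it does not. The 28 had a median total count of 90.0 over the 8 libraries and the 39 a median of 6.0, and 17 and 7 of them were tested. These counts are not scaled by exon length or corrected for windows shared with paralogs, and the part of either was not tested. The highest total count of a gene without such a transcript was 706, for *H4c8*. In LPS against control lungs 9 of the 17 tested genes with such a transcript were downregulated, and 2 of the 7 without one, against 21.3% of all genes, and the difference between these sets was not tested. Summed over the 39 genes without one, CPM was 15.2, 15.5 and 17.5 in control, 9.43, 7.16 and 6.59 in LPS, and 3.04 and 9.53 in dual-treated lungs. Over the 28 genes with one it was 198, 237 and 231 in control, 161, 187 and 142 in LPS, and 78.9 and 283 in dual-treated lungs. LPS mice were below all controls in both sums, and dual-treated mouse 2 was the lowest. The share of each gene's RNA that carries a poly(A) tail cannot be read from these counts, and its part in the results was not tested.

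Other RNAs without a poly(A) tail had few counts, apart from *Rn7sk*. Of 12 such RNAs in a list, found under 14 identifiers, 2 were tested, and the others had at most 2 counts in a library. Some of these lie under 2 overlapping identifiers, where reads may not have been assigned, so a count of 0 does not show absence. *Rn7sk* had 140, 145 and 90 counts in control, 113, 230 and 206 in LPS, and 40 and 90 in dual-treated lungs. Its log2FC was 0.82 in LPS against control and -1.04 in dual-treated against control, neither called, and -1.86 in dual-treated against LPS lungs (SE 0.416, adjusted p = 0.00393), which was downregulated. Control and LPS mice overlapped in *Rn7sk*, and dual-treated mouse 2 had the fewest counts. Any relation of *Rn7sk* to the clustered histone genes was not tested. *Scarna2* had 4 to 12 counts in the libraries and was not called.

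Paralogs of clustered histones share stretches of sequence. In 20 of the 68 clustered genes at least 50% of the 150-base windows also occur in other genes of the symbol pattern, and 5 of these were tested. In 48 the share was lower, and 20 of these were tested. No window of a variant gene is shared within the symbol pattern. Windows were compared only among genes of this pattern, so sharing with other genes or pseudogenes was not searched. How multimapping reads were counted is not stated, so values of single clustered genes with shared windows are uncertain.

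Promoters of 300 bases, from 250 before to 50 after the gene start, were taken from RefSeq (GRCm38.p6), which held 67 of the 79 symbols, 1 of them with 2 promoters. They were searched on both strands for ATTTGCAT (the octamer motif), CCAAT and TATAAA, and a stretch shared by different motifs counts for each. Of 59 promoters of clustered genes, 22.0% held the octamer, 86.4% CCAAT and 57.6% TATAAA. Of 32851 promoters in the whole table, 1.74% held the octamer, 37.4% CCAAT and 13.6% TATAAA. The octamer was found in 6 of 17 H2A and 7 of 15 H2B promoters, and in none of the H1, H3 and H4 promoters. CCAAT was found in each clustered H1, H2A, H2B and H3 promoter of the table, but in 3 of 11 H4 promoters. Of 9 variant promoters, 1 held the octamer, 6 held CCAAT and 1 held TATAAA. The variant promoter with the octamer is that of *H3f3b*, the variant gene with the highest log2FC in LPS lungs, and it also held TATAAA. It is shown with the promoter of *H2bc8*, a clustered gene downregulated by LPS that holds the same motifs. A match is a description of letters and not of a bound site. The *H3f3b* promoter is chr11:116024455-116024754 on the minus strand and the *H2bc8* promoter chr13:23571150-23571449 on the plus strand of GRCm38.p6. Both are written 5′ to 3′ along the gene with the motifs, on either strand, in capitals.
H3f3b: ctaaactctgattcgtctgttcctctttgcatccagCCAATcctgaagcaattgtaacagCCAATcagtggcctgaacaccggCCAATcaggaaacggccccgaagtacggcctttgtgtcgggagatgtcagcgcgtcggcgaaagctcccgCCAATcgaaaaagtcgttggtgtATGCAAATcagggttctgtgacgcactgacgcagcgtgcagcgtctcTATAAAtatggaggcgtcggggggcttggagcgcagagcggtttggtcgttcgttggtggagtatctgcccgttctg
H2bc8: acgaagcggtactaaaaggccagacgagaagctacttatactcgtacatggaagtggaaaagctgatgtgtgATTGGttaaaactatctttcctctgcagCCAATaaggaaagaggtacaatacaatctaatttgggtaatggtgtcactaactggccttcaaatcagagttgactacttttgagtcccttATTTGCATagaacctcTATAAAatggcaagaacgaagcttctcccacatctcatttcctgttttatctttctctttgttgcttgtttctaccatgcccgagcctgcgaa
In the table the *H2bc8* promoter overlaps that of the clustered gene *H2ac8*, at chr13:23571171-23571470 on the minus strand of GRCm38.p6, so that the same octamer lies between both genes.

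Genes that make and process histone mRNA were read beside the histone genes. Of 13 such genes, 1 was downregulated in LPS against control, against 21.3% of all genes. In dual-treated against LPS lungs 1 was upregulated and 1 downregulated, against 19.8% and 14.0% of all genes. In dual-treated against control lungs edgeR called 0 in either direction, with 0 at an unadjusted p-value under 0.05 and 0 by DESeq2, each with a fold change over 2. Without the fold threshold *Cstf2* and *Cpsf2* were higher and *Tut7* and *Lsm11* lower at an unadjusted p-value under 0.05. *Lsm10*, which belongs to the particle that cleaves histone mRNA after the stem-loop, had 17.5, 13 and 18.9 CPM in control, 4.75, 6.29 and 4.07 in LPS, and 16.1 and 19.1 in dual-treated lungs. LPS mice were below all others, and dual-treated and control mice overlapped. *Lsm10* had a log2FC of -1.71 in LPS against control (SE 0.21, adjusted p = 7.58e-05) and 1.80 in dual-treated against LPS lungs (SE 0.226, adjusted p = 0.000137). *Slbp*, which binds the stem-loop, had 22.8, 19.5 and 19.4 CPM in control, 26.7, 28.6 and 26.3 in LPS, and 24.1 and 20.8 in dual-treated lungs. LPS mice were slightly above the others, and *Slbp* was not called, with a log2FC of 0.41 in LPS against control lungs. *Tut7*, which adds uridines to RNA ends, had a log2FC of -1.11 in dual-treated against LPS lungs and was downregulated.

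The counts of lists from here on can be read beside the shares of all genes called higher and lower, which were 17.9% and 21.3% in LPS against control, 5.25% and 1.90% in dual-treated against control, and 19.8% and 14.0% in dual-treated against LPS lungs. Of 19 genes of histone chaperones and chromatin assembly, 3 were upregulated in LPS against control, 3 in dual-treated against control, and 1 was upregulated and 2 downregulated in dual-treated against LPS lungs. *Daxx*, a chaperone of the replacement H3 histone encoded by *H3f3b*, had 39.1, 32.2 and 32.4 CPM in control, 303, 200.2 and 212 in LPS, and 50.2 and 36.6 in dual-treated lungs. LPS mice were far above the others, as for *H3f3b*, and its log2FC was 2.79 in LPS against control (SE 0.192, adjusted p = 2.56e-06) and -2.46 in dual-treated against LPS lungs (SE 0.221, adjusted p = 2.25e-05). *Chaf1b*, of the complex that assembles histones at replicating DNA, had a log2FC of 2.28 in LPS against control and 1.28 in dual-treated against control lungs, both called. *Hira*, which belongs to the other known path for the replacement H3 histone, had 0.24 in LPS against control lungs and was not called.

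Of 7 further histone genes outside the symbol pattern, 5 were in the files and 3 were tested. *Macroh2a1*, an H2A variant with a large extra domain, had 99.4, 84.2 and 87.3 CPM in control, 288, 225 and 172 in LPS, and 83.7 and 91.8 in dual-treated lungs. LPS mice were above all others, with a log2FC of 1.34 in LPS against control (SE 0.171, adjusted p = 9.68e-05) and -1.38 in dual-treated against LPS lungs (SE 0.197, adjusted p = 0.000297). *Macroh2a2* had log2FC of -0.58, 0.17 and 0.75 in the 3 comparisons and the centromere histone *Cenpa* 0.04, 0.33 and 0.29, and none was called. *H3f5* had 5 to 12 counts in the libraries and *H3f4* at most 6.

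Genes of DNA replication and mitosis were read because clustered histone genes are transcribed mainly with replication. Of 23 replication genes, 8 were upregulated and 1 downregulated in LPS against control, 11 were upregulated in dual-treated against control, and 5 were upregulated and 1 downregulated in dual-treated against LPS lungs. Their summed CPM was 294, 267 and 284 in control, 431, 394 and 347 in LPS, and 539 and 403 in dual-treated lungs, with *Pcna* the most abundant. All treated mice were above all control mice, and dual-treated mouse 2 was the highest. In the sum of all clustered genes this mouse was the lowest, and without *H1f2* and *H2bc4* it lay among the LPS mice. In LPS against control lungs the log2FC was 3.00 for *Fen1*, 1.85 for *Ccne1* and -1.44 for *E2f1*, all called. Of 14 mitosis genes, 10 were upregulated and 1 downregulated in LPS against control, 11 were upregulated in dual-treated against control and 3 in dual-treated against LPS lungs. Their summed CPM was 35.7, 40.2 and 35.5 in control, 120.5, 97.8 and 84.6 in LPS, and 189.8 and 103 in dual-treated lungs, with *Mki67* the most abundant. The log2FC in LPS against control lungs was 2.59 for *Ccnb1*, 2.16 for *Cdk1* and -1.96 for *Bub1*, all called. The 25 tested clustered genes and both lists had medians of opposite sign in LPS lungs, at -1.58 against 0.57 for replication and 1.42 for mitosis. This clustered median depended on the filter, which a gene can pass through 1 group alone. Without a filter it was -0.87 over 58 clustered genes, and the abundant *H1f2* had a log2FC of 0.05. With library size only the clustered median stayed below that of all genes, as given above, and the reason for the difference was not tested.

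Marker genes of blood and immune cells moved in the same libraries. Of 8 neutrophil genes, led by *S100a9*, 7 were upregulated in LPS against control and 7 in dual-treated against control, and 4 were upregulated and 1 downregulated in dual-treated against LPS lungs. Their log2FC in LPS against control lungs was 4.29 for *S100a8*, 4.38 for *S100a9*, 2.21 for *Retnlg*, 5.16 for *Ly6g*, 0.97 for *Csf3r*, 1.52 for *Cxcr2*, 3.06 for *Mmp8* and 2.82 for *Mmp9*. Summed over them, CPM was 231, 128 and 134 in control, 2190.4, 3059 and 1915 in LPS, and 1800.4 and 2483 in dual-treated lungs. The sum of neutrophil genes was above all control mice in each treated mouse, and its relation to the clustered histone genes was not tested. *Ly6g* had 0.832, 0.141 and 0.368 CPM in control, 10.1, 26.7 and 11.5 in LPS, and 0.908 and 3.86 in dual-treated lungs. In dual-treated lungs it was not called against control and was downregulated against LPS, with a log2FC of -2.75.

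All 7 genes of immature neutrophils were upregulated in LPS against control, 2 in dual-treated against control, and 6 were downregulated in dual-treated against LPS lungs. Their log2FC in LPS against control lungs was 3.58 for *Elane*, 4.25 for *Mpo*, 2.80 for *Prtn3*, 3.00 for *Ctsg*, 4.28 for *Ngp*, 3.15 for *Camp* and 2.07 for *Ltf*. Their summed CPM was 122, 151 and 65.8 in control, 648, 660.3 and 639 in LPS, and 303 and 118 in dual-treated lungs, with *Ltf* the most abundant. Of 9 macrophage and monocyte genes, led by *Chil3*, 1 was upregulated and 1 downregulated in LPS against control, *Ly6c2* at 3.37 and *Ccr2* at -3.19, while 7 were upregulated in dual-treated against each other group. In sum they had 809, 549 and 756 CPM in control, 933, 1034 and 536 in LPS, and 1495 and 2022 in dual-treated lungs. Both dual-treated mice were above all others in this sum. In the sum of immature neutrophil genes both were below all LPS mice, with mouse 2 above all controls and mouse 5 among them.

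Of 6 lymphocyte genes, led by *Cd79b*, 2 were downregulated in LPS against control, and 2 were upregulated and 1 downregulated in dual-treated against LPS lungs. The log2FC in LPS against control lungs was -0.81 for *Cd3e*, 0.44 for *Cd3d*, -1.68 for *Cd79a*, -0.19 for *Cd79b*, -2.62 for *Ms4a1* and 1.07 for *Nkg7*. The sum was 38.0, 36.6 and 34.6 CPM in control, 30.5, 29.6 and 17.9 in LPS, and 65.9 and 31.6 in dual-treated lungs. In this sum LPS mice were below all others, and dual-treated mouse 2 was the highest. Dual-treated mouse 2 was above mouse 5 in *Cd79a* (28.6 against 6.5 CPM), *Cd79b* (22.6 against 10.1) and *Ms4a1* (9.44 against 3.86). It was below mouse 5 in *Nkg7* (2.86 against 9.48 CPM). In *Cd3e* (0.726 and 0.571 CPM) and *Cd3d* (1.63 and 1.1) both dual-treated mice were below all control mice. Erythroid genes were read as well. *Hbb-bs* had 856, 2024 and 1454 CPM in control, 1571, 829 and 698 in LPS, and 206 and 184 in dual-treated lungs. Both dual-treated mice were below all others, and control and LPS mice overlapped. The log2FC in dual-treated against control lungs was -2.61 for *Hba-a1*, -2.89 for *Hba-a2*, -2.89 for *Hbb-bs*, -3.21 for *Hbb-bt* and -2.50 for *Alas2*, all called. Each was downregulated against LPS as well, with log2FC from -3.14 to -2.39, and was not called in LPS against control lungs. Of the 10 lung genes, 1 was downregulated in LPS against control, *Pecam1* at -1.52, and in dual-treated against LPS lungs 1 was upregulated and 2 were downregulated. Dual-treated mice 2 and 5 had similar values of *Hbb-bs* and differed in the sums of lymphocyte and immature neutrophil genes. The part of cell composition in the histone values was not tested.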

How the data were processed

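The authors filtered the reads with FastQC 0.11.9 and Trim Galore, aligned them to GRCm39 with HISAT2 2.2.1 and counted them per gene with featureCounts 2.0.1, and they deposited raw counts for 8 libraries. The annotation release, the strand setting and the way multimapping reads were counted are not stated. Of 55416 gene identifiers, 54749 matched the GENCODE M39 annotation. In R 4.3.3, edgeR 4.0.16 was used with TMM normalization, filterByExpr by group and a quasi-likelihood fit of 1 group factor on all 8 libraries, which left 5 residual degrees of freedom. P-values were adjusted by the Benjamini-Hochberg method over 18560 genes. The SE was taken from the log2FC and its F statistic. The procedure was tested on simulated data. Alternatives were DESeq2 1.42.0, RLE normalization, library size only, no filter, at least 10 counts in every library, only the 2 compared groups, other thresholds, and each mouse left out.

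Described per mouse are the most abundant tested gene of each family and class and, in each comparison and class, up to 3 called genes with the highest and 3 with the lowest log2FC. Of each list, up to 2 called genes per direction of LPS against control are named, and lists of at most 8 genes in full, except that 1 gene of the erythroid list, and counts and sums over that list, are not reported here. Other genes named were chosen after their values were seen. The lists were histone mRNA processing, histone chaperones, DNA replication, mitosis, other histone genes, RNAs without a poly(A) tail, neutrophils, immature neutrophils, macrophages and monocytes, lymphocytes, erythroid cells, lung, squamous epithelium and skeletal muscle. Members and lists were chosen with earlier results of these data known. Where edgeR called 0 genes of a list in a direction, the counts at an unadjusted p-value under 0.05 and by DESeq2, both with a fold change over 2, were also 0, apart from the following. RNAs without a poly(A) tail had 1 lower by both in dual-treated against control lungs. Lymphocyte genes had 1 higher by both in LPS against control, and in dual-treated against control 1 higher at an unadjusted p-value and 1 lower by both.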

Additional observations from a re-analysis of the deposited data

How the results depend on the processing

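Of 32 named log2FC results, 9 kept direction and call under all alternatives, and 7 changed sign at least once. Over their 442 alternatives, 385 kept both, 29 lost the call, 12 gained it and 16 changed sign. Counts of called genes are given here for clustered and variant genes, and the cause of each change was not tested.

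In LPS against control, clustered genes called higher went from 0 to 2 without a filter. Those called lower went from 12 to 3 with at least 10 counts in every library, where 7 clustered genes were tested. Leaving out each mouse gave 8 to 12 lower, against 3750 to 3912 of all 18560 genes. Variant genes called higher went from 2 to 1 with library size only, and lay at 1 to 2 over mice left out. Variant genes called lower went from 0 to 1 with library size only, to 3 without a fold threshold and to 1 with *H2ac25* counted as variant.

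In dual-treated against control, clustered genes called higher went from 0 to 1 without a filter. Those called lower went from 2 to 1 with library size only or only the 2 compared groups, and to 6 at an unadjusted p-value with the same fold threshold. They lay at 0 to 2 over control mice left out, and the clustered median ran from -2.48 to -0.29 over all mice left out. Variant genes called higher stayed at 0 over control mice left out, and those called lower went from 0 to 1 without a fold threshold.

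In dual-treated against LPS, clustered genes called higher went from 6 to 2 with at least 10 counts, to 3 with only the 2 compared groups, and lay at 3 to 4 over LPS mice left out. Those called lower went from 1 to 0 with at least 10 counts and stayed at 1 over LPS mice left out. The clustered median ran from -0.93 to 1.15 over all mice left out. Variant genes called higher went from 1 to 2 without a fold threshold or with *H2ac25* as variant, and stayed at 1 over LPS mice left out. Those called lower went from 2 to 1 with library size only and to 3 without a fold threshold, and lay at 1 to 2 over LPS mice left out.

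The log2FC of *H1f2* in LPS against control was -0.23 with library size only, -0.11 without LPS mice 6 and 7, and -0.08 to 0.14 over mice left out. In dual-treated against control it was -1.34 to 0.68 over mice left out. In dual-treated against LPS it was 0.29 with library size only, 0.00 without a filter and with at least 10 counts, 0.14 without LPS mice 6 and 7, and -1.39 to 0.62 over mice left out. Over mice left out, *H2bc4* ran from -1.73 to 0.07 against control and from -0.93 to 0.87 against LPS, *H3c15* from -0.36 to 3.55 against LPS, and *H4c8* from -1.57 to 0.08 against LPS, all in dual-treated lungs.

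With a mouse of the dual treatment left out, or LPS mice 6 and 7, the lone sample was assumed to vary like the other groups. The alternatives without LPS mice 6 and 7 and with *H2ac25* as variant were chosen after seeing the data. A planned count of *H2aw* with the clustered genes gave no value of its own, because the annotation has no such symbol. No paired analysis was possible because no pair of groups shares 2 replicate numbers. Most clustered genes had too few counts to pass the filter, and values without a filter rest on few counts.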
